A study of Mus musculus with 8 samples.

Results

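The constant region genes of the immunoglobulin chains were examined by RNA-seq in follicular B cells, the naive cells that circulate through lymphoid follicles, sorted from mouse spleen into 8 libraries. The list held 10 genes: Ighm, Ighd, Ighg3, Ighg1, Ighg2b, Ighg2c and Igha of the heavy chain, Igkc of the kappa light chain, and Iglc1 and Iglc2 of the lambda light chain. They were found by Ensembl identifier in a table of raw counts for 43629 genes, where 9 of the 10 had a row and Iglc1 was not analysed here. The genotype was labelled Rosa26GFPZFP36L1 with CD23cre/+ in 4 libraries, called GFP-ZFP36L1 here, and Rosa26GFPZFP36L1 with no Cre named in the other 4, called control. Both groups thus carried the allele at Rosa26, and they differed by a Cre driven from CD23, a gene that turns on as B cells mature. Cre and expression of the GFP-tagged RNA-binding protein ZFP36L1 go together in this design and cannot be told apart. By the labels, the sorted cells carried CD21, CD23, CD93 and B220. Cd93 is also among the transitional markers listed for this report, and its place in a follicular gate rests on the labels alone. Nothing in the labels ties libraries to separate animals, and the p-values below therefore reflect library-to-library spread, which may be technical.

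An antibody is built from paired heavy and light chains, and the constant region of the heavy chain sets its class. A mature naive B cell carries IgM and IgD at its surface, made from one long primary transcript that is spliced and cleaved to join the same variable exon to either constant region. Class switching deletes the DNA between the variable exon and a downstream constant gene, so that the cell makes IgG, IgE or IgA in place of IgM and IgD. A gene's count does not separate the membrane form from the secreted form, or a switched transcript from the germline transcript that an unswitched cell can make from the same gene. In bulk RNA, fewer cells of a kind and less RNA per cell cannot be told apart.

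On the minus strand of chromosome 12 in GRCm38, Ighm lies from 113418558 to 113422730 and Ighd from 113406604 to 113416324, with 2233 bp between them. The switched genes follow in the direction of transcription, with Ighg3 starting 61.5 kb beyond the start of Ighm, Ighg1 at 92.2 kb, Ighg2b at 114.8 kb, Ighg2c at 133.8 kb and Igha at 162.5 kb. Igkc lies on the plus strand of chromosome 6 from 70726435 to 70726966, and its span overlaps that of the long noncoding gene Gm30211. Iglc2 lies on the minus strand of chromosome 16 from 19198396 to 19200351, and its span overlaps that of Iglj2. The IgG genes are alike in sequence, and reads are assigned to a subclass where they differ. The annotated transcripts of the 10 genes and of Ighe, Iglc3 and Iglc4 shared 0 stretches of 100 nt, the read length in the series' design text. At 50 nt, Ighg2b and Ighg2c shared 70 stretches, 2.66% of those of Ighg2b and 5.49% of those of Ighg2c. Ighg3 and Ighg2b shared 39, and Ighg1 shared 10 with each of them. The hinge exon, the flexible link between the antigen-binding arms and the stem, differs in length between the subclasses, and IgM has a whole domain in its place.

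The hinge exons of the IgG genes and of Ighd are shown because the called differences described below were in Ighd and Ighg1, and Ighg1 has close relatives in the other IgG genes. They are on the minus strand of GRCm38, written 5′ to 3′ from the GENCODE transcripts, with complete in-frame cysteine codons in capitals. Such cysteines can form the disulphide bonds that join the heavy chains.
Ighd (chr12:113415562-113415666): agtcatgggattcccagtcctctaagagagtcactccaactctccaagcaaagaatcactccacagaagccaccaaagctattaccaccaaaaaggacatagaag
Ighg3 (chr12:113360529-113360576): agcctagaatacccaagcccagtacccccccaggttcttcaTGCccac
Ighg1 (chr12:113329844-113329882): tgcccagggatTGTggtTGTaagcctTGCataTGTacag
Ighg2b (chr12:113307261-113307326): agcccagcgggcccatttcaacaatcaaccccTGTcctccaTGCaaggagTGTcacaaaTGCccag
Ighg2c (chr12:113288263-113288325): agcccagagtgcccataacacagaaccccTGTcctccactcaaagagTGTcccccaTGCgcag
The exon had 39 nt and 4 cysteine codons in Ighg1, 66 nt and 4 in Ighg2b, 63 nt and 3 in Ighg2c, and 48 nt and 1 in Ighg3. That of Ighd was the longest of these 5, at 105 nt, and held 0 cysteine codons.

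The libraries held between 38947758 and 48328512 counts in the GFP-ZFP36L1 group and between 40976668 and 51024233 in the controls. Zfp36l1 itself was lower in the libraries labelled GFP-ZFP36L1, at 439 ± 28.6 CPM, counts per 1000000 on TMM-scaled library sizes, against 547 ± 35.1 CPM in the controls (SD, n = 4 each; edgeR adjusted p = 0.0348). Its counts do not separate the allele from the endogenous gene, and since they run against the label, GFP-ZFP36L1 below names libraries by their label. Gt(ROSA)26Sor, the noncoding gene at the Rosa26 site, had 3.90 ± 0.603 CPM in GFP-ZFP36L1 libraries and 16.9 ± 2.58 CPM in controls (edgeR adjusted p = 4.139e-05). Cd93, whose protein is part of the labelled gate, had 11.3 ± 2.86 CPM in GFP-ZFP36L1 libraries and 10.5 ± 2.003 CPM in controls. Markers of B cells were abundant in both groups, and the 7 listed summed to 10920 to 12510 CPM in GFP-ZFP36L1 libraries and 12510 to 13370 CPM in controls. Of the T cell list, Cd3e, Cd3g and Cd4 had no more than 0.0487 CPM in any library, while Lck had 31.35 to 34.39 CPM. The NK cell genes Ncr1, Nkg7 and Gzma had no counts, while Prf1, on the same list, had 1.77 to 3.36 CPM. The plasma cell gene Tnfrsf17 had no counts either, while Irf4, on the plasma cell list, had 200 to 239 CPM.

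**Figure D1:**
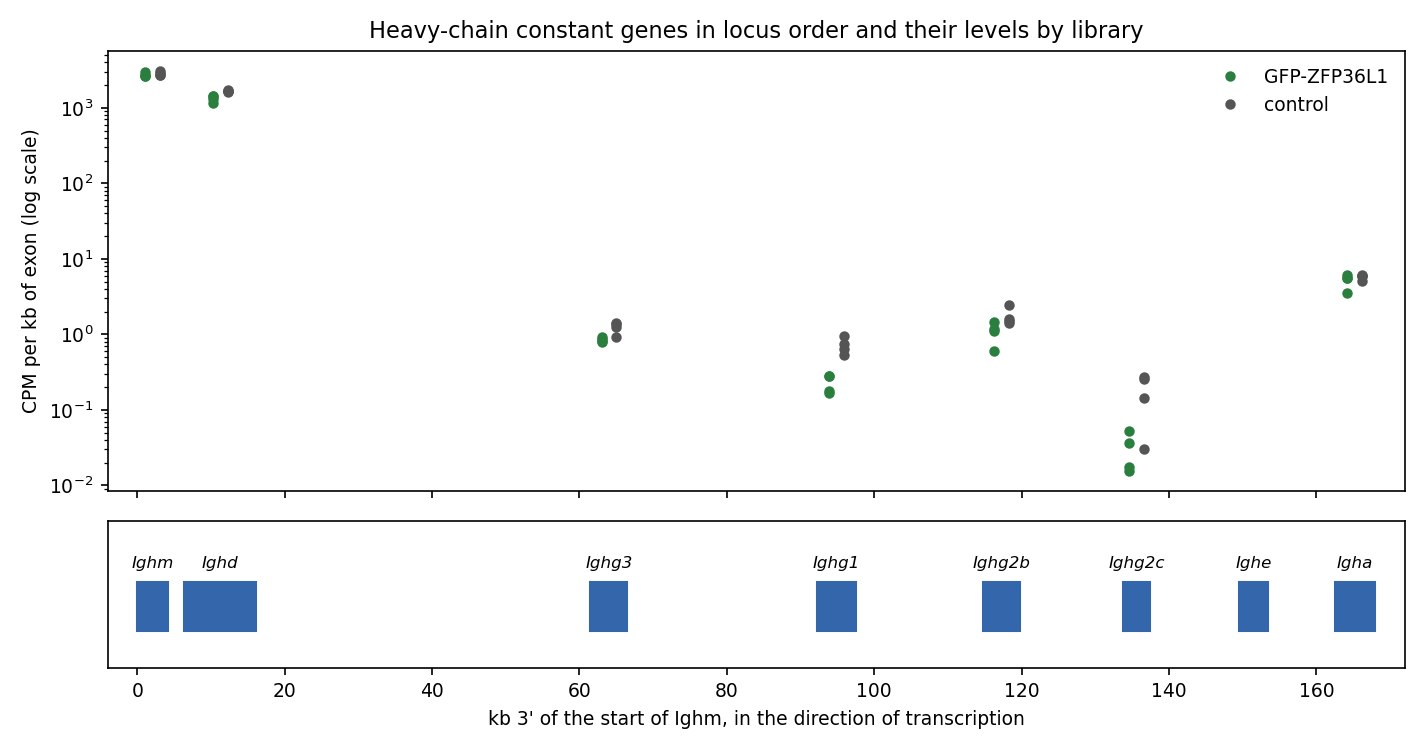
Level of each heavy-chain constant gene in each library (upper panel, CPM per kb of exon on a log scale, green points GFP-ZFP36L1, grey points control, 4 libraries each) above the genes' order along the locus (lower panel, kb from the start of Ighm in the direction of transcription). Ighm and Ighd stand at 1173 CPM per kb or more in every library, the switched genes at 6.08 CPM per kb or less, and the lowest is Ighg2c.

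Per kb of exon, Igkc was the most abundant constant gene, at 3636 ± 543 CPM per kb in GFP-ZFP36L1 libraries and 4172 ± 464 in controls (SD, n = 4 each). Ighm followed at 2738 ± 138 in GFP-ZFP36L1 libraries and 2869 ± 171 in controls, and Ighd at 1327 ± 119 in GFP-ZFP36L1 libraries and 1669 ± 34.7 in controls. Iglc2 came next, at 953 ± 114 in GFP-ZFP36L1 libraries and 1002 ± 98.8 in controls. Within a group, the libraries of these 4 genes of the naive B cell receptor did not overlap with those of the next gene. The switched genes came far below. Igha, the IgA heavy chain of mucosal antibodies, had 5.19 ± 1.097 CPM per kb in GFP-ZFP36L1 libraries and 5.81 ± 0.430 in controls. The IgG genes ran from Ighg2b, at 1.099 ± 0.360 CPM per kb in GFP-ZFP36L1 libraries and 1.75 ± 0.482 in controls, down to Ighg2c, at 0.0304 ± 0.0173 in GFP-ZFP36L1 libraries and 0.176 ± 0.113 in controls. Ighg3 and Ighg1 lay between them, and the order by mean was the same in both groups. Ighg2b and Ighg3 overlapped in both groups, Ighg3 and Ighg1 overlapped in controls, and no other neighbours did. The 9 constant genes together took from 0.990% to 1.105% of all counts in GFP-ZFP36L1 libraries and from 1.07% to 1.17% in controls.

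Between the groups, 2 members fell in the libraries labelled GFP-ZFP36L1, Ighg1 and Ighd, 0 rose and 6 of the 8 tested members did not pass. The test was edgeR's quasi-likelihood fit of all genes with Benjamini-Hochberg adjustment. Among all 13035 tested genes, 1.3% were called lower and 1.83% higher at an adjusted p under 0.05. At an unadjusted p under 0.05 in edgeR, 4 members were lower and 0 higher, beside 7.87% of all tested genes lower and 9.47% higher. DESeq2 called 3 members lower and 0 higher, beside 3.15% of all genes lower and 3.85% higher, and limma voom 2 lower and 0 higher, beside 3.77% lower and 4.31% higher. The counts by these thresholds for the gene lists below are read against the same shares. All 8 log2 fold changes were negative, with a median of -0.265 beside -0.007 over all tested genes. In 3 members, Ighd, Ighg3 and Ighg1, every GFP-ZFP36L1 library lay below every control, which was so in 4.98% of all tested genes. The members share cells and transcripts and are not independent of each other. Ighg2c was too low to be tested.

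**Figure D2:**
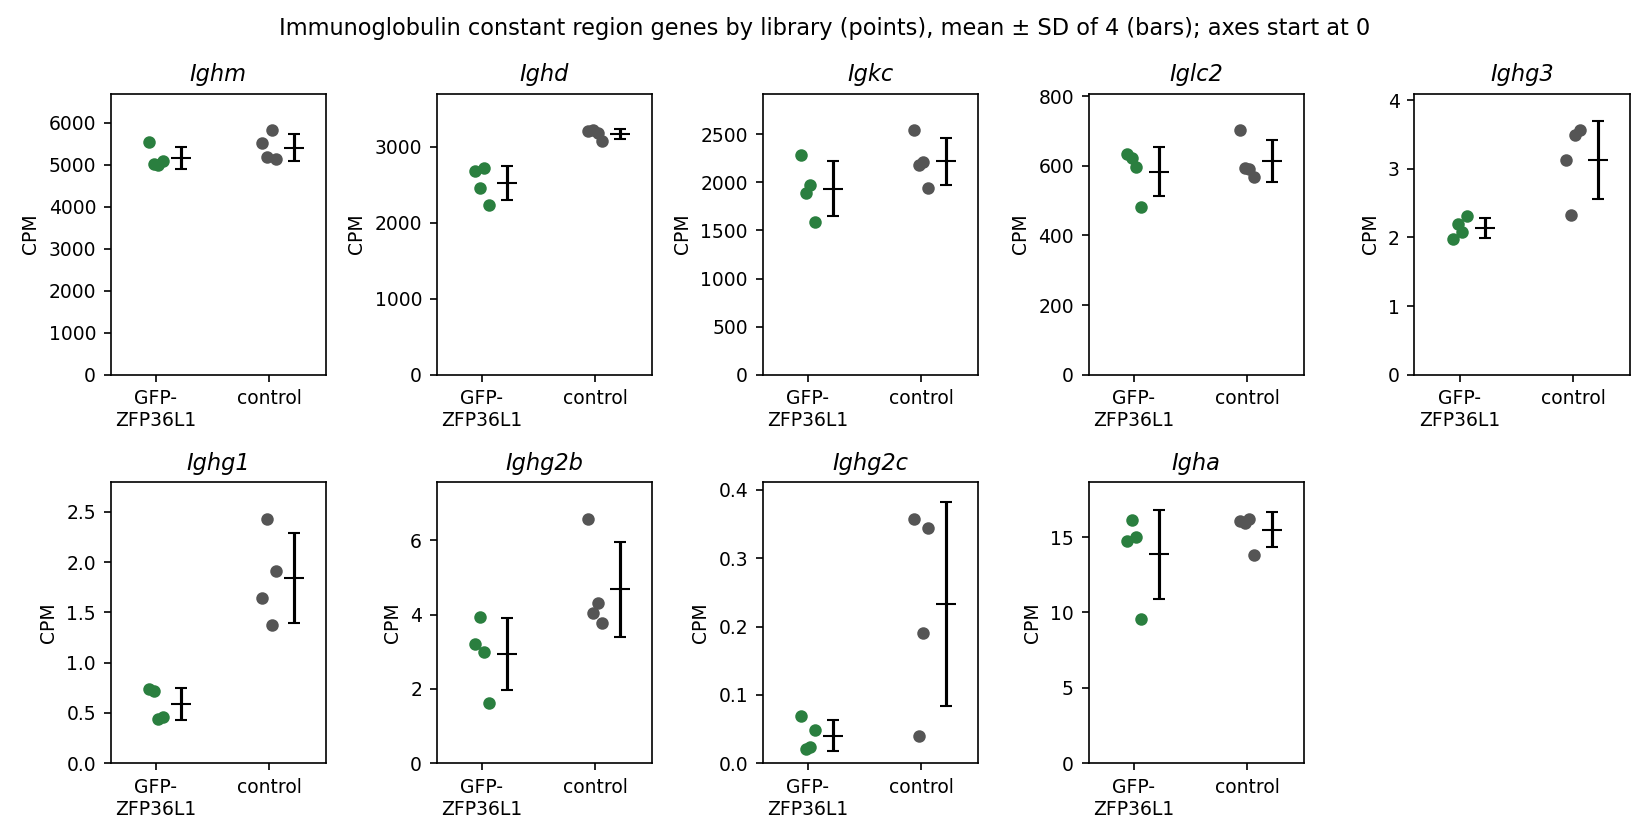
CPM of the 9 constant region genes with counts in each library (points; GFP-ZFP36L1 left in green, control right in grey) with the mean and SD of 4 libraries (bars), each panel on its own axis from 0. Ighd, Ighg3 and Ighg1 have no overlap between groups, and Ighm, Igkc, Iglc2, Ighg2b, Ighg2c and Igha overlap.

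Ighd, the heavy chain of IgD, was lower in the libraries labelled GFP-ZFP36L1, while Ighm, which shares its primary transcript, overlapped between groups. Ighd had 2678, 2462, 2717 and 2228 CPM in GFP-ZFP36L1 replicates 1 to 4, against 3205, 3219, 3188 and 3075 CPM in control replicates 1 to 4. The controls lay close to each other, and the highest GFP-ZFP36L1 library was below the lowest of them. The mean was 2521 ± 226 CPM in GFP-ZFP36L1 libraries and 3172 ± 65.9 CPM in controls (SD, n = 4 each), a log2 fold change of -0.33 ± 0.08 (SE). The edgeR adjusted p was 0.0493, close to the threshold of 0.05. Leaving out GFP-ZFP36L1 replicate 1 kept the call, at an edgeR adjusted p of 0.0227, and leaving out any of the other 7 libraries lost it, at edgeR adjusted p between 0.0943 and 0.152. In the authors' deposited table, whose name sets GFP over WT, Ighd had a log2 fold change of -0.30 and an adjusted p of 0.000243.

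Ighm, the heavy chain of IgM, had 5550, 5016, 5003 and 5083 CPM in GFP-ZFP36L1 replicates 1 to 4, against 5509, 5183, 5825 and 5129 CPM in control replicates 1 to 4. GFP-ZFP36L1 replicate 1 lay within the controls and the other libraries of its group below them, so the overlap rests on that library. The log2 fold change of -0.07 ± 0.08 (SE) did not pass (edgeR adjusted p = 0.727). Ighd thus passed the test and Ighm did not, and the difference between them is tested by their ratio.

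The IgM to IgD ratio sets both transcripts against each other within a library and does not depend on library size. Counts of Ighm were 2.07, 2.04, 1.84 and 2.28 times those of Ighd in GFP-ZFP36L1 replicates 1 to 4, against 1.72, 1.61, 1.83 and 1.67 times in control replicates 1 to 4. Every GFP-ZFP36L1 library was above every control, although GFP-ZFP36L1 replicate 3, at 1.841, and control replicate 3, at 1.827, nearly met. The mean ratio was 2.06 ± 0.180 in GFP-ZFP36L1 libraries against 1.71 ± 0.0922 in controls (SD, n = 4 each), a fold of 1.204. Per kb of exon it was 2.07 in GFP-ZFP36L1 libraries against 1.72 in controls. The exact permutation p was 0.0286 (two-sided), the smallest that 4 against 4 libraries allow. It was 0.114 after Benjamini-Hochberg adjustment over the 4 ratios tested. The adjusted p could fall below 0.05 only if other ratios also came near the smallest p. It therefore cannot decide whether this ratio differed.

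Zfp318 encodes a nuclear zinc-finger protein that mouse B cells need in order to make IgD transcripts, by letting transcription and splicing pass the end of Ighm. It had 456, 472, 432 and 451 CPM in GFP-ZFP36L1 replicates 1 to 4, against 493, 551, 541 and 569 CPM in control replicates 1 to 4. The groups did not overlap, but its log2 fold change of -0.25 ± 0.06 (SE) did not pass (edgeR adjusted p = 0.0557). Of the 11 genes listed for processing of IgM and IgD transcripts, 10 were tested, 0 rose and 0 fell, with 6 negative log2 fold changes and a median of -0.03. At an unadjusted p under 0.05 edgeR had 2 lower, where 7.87% of all tested genes were lower, and DESeq2 and limma voom each called 1 lower after adjustment. Cstf3, a cleavage stimulation factor that acts at polyadenylation sites, had a log2 fold change of -0.14 ± 0.06 (SE) and Srsf3, a splicing factor, -0.13 ± 0.07. Ell2, an elongation factor that favours the secreted form of heavy chain transcripts in plasma cells, had 0.09 ± 0.06.

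**Figure D3:**
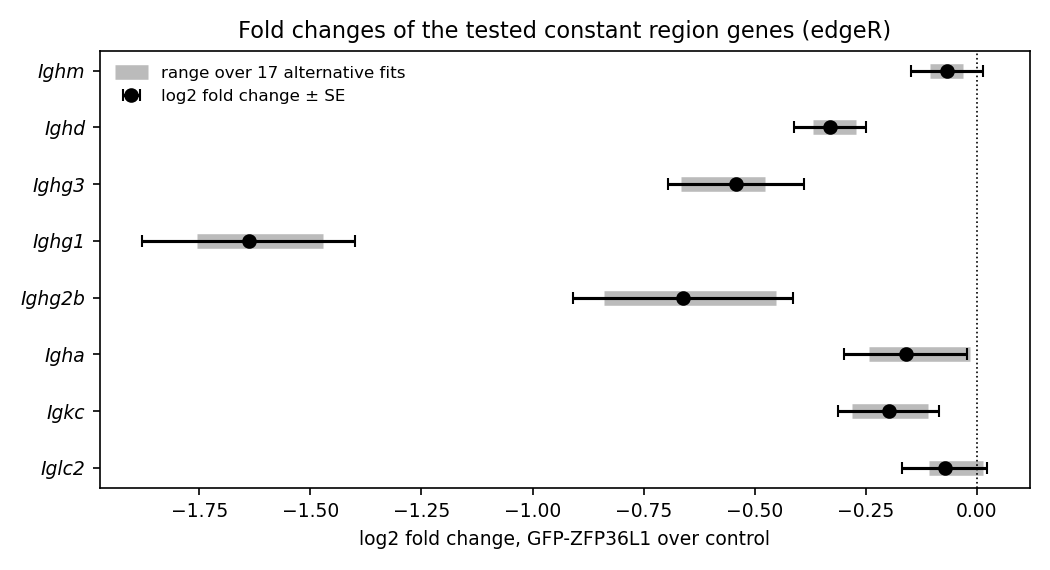
Log2 fold change, GFP-ZFP36L1 over control, of the 8 tested constant region genes (points, with SE as bars) and the range of the same value over 17 alternative fits (grey bands). Ighg1 lies at -1.64 and stays below -1.47 in every alternative fit, while the Iglc2 band reaches 0.015, above 0.

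Ighg1, the heavy chain of IgG1, had the largest difference among the tested members. It had 32, 35, 19 and 19 counts in GFP-ZFP36L1 replicates 1 to 4, against 69, 121, 58 and 78 counts in control replicates 1 to 4. On the CPM scale these were 0.737, 0.719, 0.438 and 0.463 CPM in GFP-ZFP36L1 libraries, against 1.65, 2.43, 1.38 and 1.92 CPM in controls. The groups did not overlap, and the GFP-ZFP36L1 mean of 0.589 ± 0.161 CPM was 0.320 times the control mean of 1.84 ± 0.450 CPM (SD, n = 4 each). The log2 fold change of -1.64 ± 0.24 (SE) had an edgeR adjusted p of 0.00801 and stayed called in all 17 alternative fits, DESeq2, limma voom and each single library left out included, at an adjusted p of at most 0.0356. It rests on 105 counts in all GFP-ZFP36L1 libraries together and 326 in the controls. In the authors' deposited table Ighg1 had a log2 fold change of -0.71 and an adjusted p of 3e-07. The authors' values lay near those computed here for abundant members, such as Ighd, at -0.30 against -0.33. They were further off for members with few counts, such as Ighg3, at -0.35 against -0.54. The reason was not tested.

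Ighg3, the heavy chain of IgG3, had 86, 107, 90 and 95 counts in GFP-ZFP36L1 replicates 1 to 4, against 131, 116, 147 and 145 counts in control replicates 1 to 4. Scaled to library size, GFP-ZFP36L1 libraries had 2.14 ± 0.145 CPM against 3.13 ± 0.564 CPM in controls (SD, n = 4 each), and the highest GFP-ZFP36L1 library, at 2.314 CPM, was just below the lowest control, at 2.332 CPM. The log2 fold change of -0.54 ± 0.15 (SE) did not pass (edgeR adjusted p = 0.0846), and passed with DESeq2, at an adjusted p of 0.0300. The authors' deposited table gave Ighg3 an adjusted p of 0.0267.

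Ighg2b, the heavy chain of IgG2b, overlapped between groups. It had 3.20, 3.94, 2.997 and 1.63 CPM in GFP-ZFP36L1 replicates 1 to 4, against 6.59, 4.04, 4.30 and 3.78 CPM in control replicates 1 to 4. GFP-ZFP36L1 replicate 2 lay within the controls and replicate 4 was the lowest library. The mean was 2.94 ± 0.964 CPM in GFP-ZFP36L1 libraries and 4.68 ± 1.29 CPM in controls (SD, n = 4 each), and its log2 fold change of -0.66 ± 0.25 (SE) did not pass (edgeR adjusted p = 0.190). Ighg2c, the heavy chain of IgG2c, had 3, 1, 1 and 2 counts in GFP-ZFP36L1 replicates 1 to 4, against 15, 2, 8 and 14 counts in control replicates 1 to 4. These counts are too few for a level in most libraries, and control replicate 2 lay within the GFP-ZFP36L1 range. With no filter on low counts its edgeR adjusted p was 0.0382.

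Igha had 640, 785, 650 and 392 counts in GFP-ZFP36L1 replicates 1 to 4, against 672, 792, 682 and 561 counts in control replicates 1 to 4. Apart from GFP-ZFP36L1 replicate 4, at 9.55 CPM, the libraries lay between 13.8 and 16.2 CPM. The log2 fold change of -0.16 ± 0.14 (SE) did not pass (edgeR adjusted p = 0.607). Ighe, the IgE heavy chain, had 3 counts in GFP-ZFP36L1 replicate 1 and 0 in every other library.

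Switched constant genes, IgG and IgA together, took 0.251%, 0.306%, 0.265% and 0.191% of heavy constant counts in GFP-ZFP36L1 replicates 1 to 4, against 0.317%, 0.294%, 0.283% and 0.284% in control replicates 1 to 4. The 95% Wilson interval ran from 0.176% to 0.208% in the lowest library, GFP-ZFP36L1 replicate 4, and from 0.2997% to 0.336% in the highest, control replicate 1; these intervals cover counting error alone. GFP-ZFP36L1 replicate 2 lay within the control range, and the means were 0.254% ± 0.0477 in GFP-ZFP36L1 libraries and 0.295% ± 0.0160 in controls (SD, n = 4 each). That difference did not pass (exact permutation p = 0.143, two-sided, 0.190 adjusted over the 4 ratios). Without Igha, the IgG genes took from 0.0609% to 0.0919% in GFP-ZFP36L1 libraries and from 0.104% to 0.134% in controls. The groups did not overlap there (exact permutation p = 0.0286, two-sided, the smallest possible and not adjusted). Among IgG counts, the share of Ighg1 was 10.3% ± 1.80 in GFP-ZFP36L1 libraries and 19.1% ± 6.22 in controls, and that of Ighg2b 50.4% ± 9.34 in GFP-ZFP36L1 libraries and 46.8% ± 6.97 in controls (SD, n = 4 each). Whether the subclasses differed from each other in their change was not tested.

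**Figure D4:**
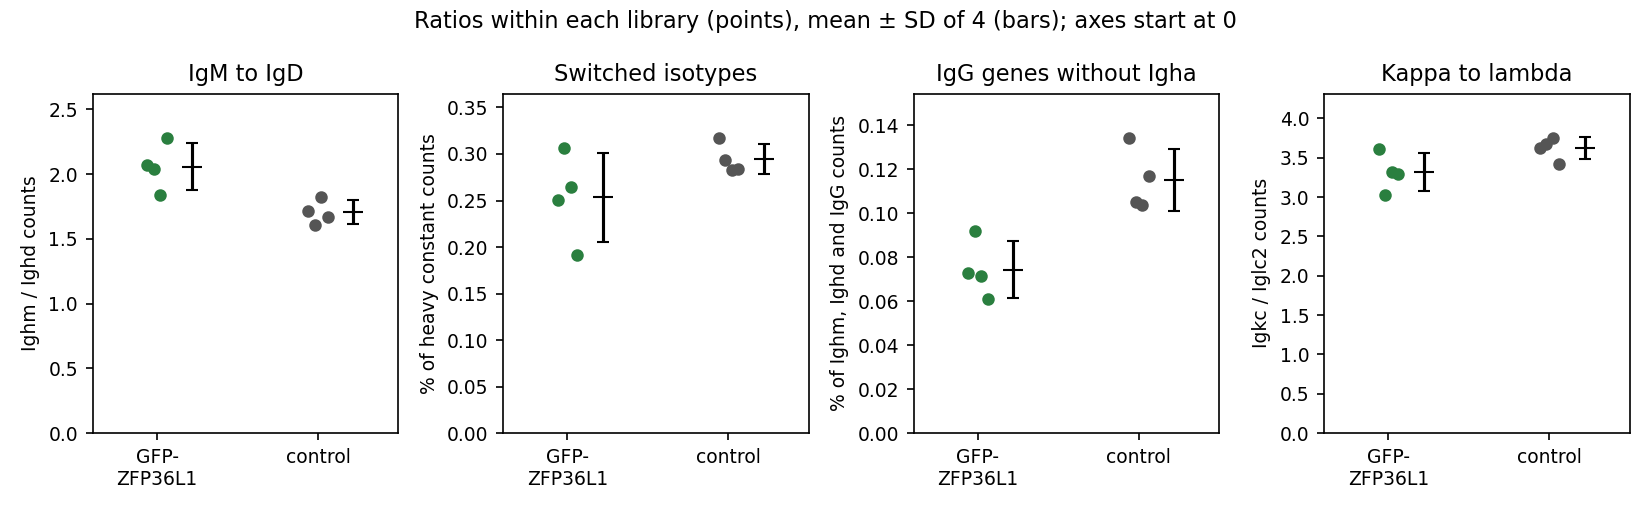
Ratios within each library (points; GFP-ZFP36L1 left in green, control right in grey) with the mean and SD of 4 (bars): Ighm over Ighd counts, the percent of heavy constant counts from switched genes, the percent from IgG genes with Igha left out, and Igkc over Iglc2 counts. The groups do not overlap for Ighm over Ighd and for the IgG percent, and they overlap for the switched percent and for Igkc over Iglc2.

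Markers of cells that carry switched or secreted antibody were read beside the IgG genes. Jchain, which links IgM and IgA into polymers in antibody-secreting cells, had 0.967, 0.780, 0.784 and 1.145 CPM in GFP-ZFP36L1 replicates 1 to 4, against 1.55, 1.13, 1.36 and 2.36 CPM in control replicates 1 to 4. Its log2 fold change of -0.79 ± 0.24 (SE) did not pass (edgeR adjusted p = 0.109). Of the 10 plasma cell markers, 9 were tested and 1 fell, Fkbp11, a chaperone gene of secretory cells, at 2.11 ± 0.529 CPM in GFP-ZFP36L1 libraries against 3.75 ± 0.293 CPM in controls (edgeR adjusted p = 0.0289). Prdm1, which directs plasma cell fate, had a log2 fold change of 0.59 ± 0.19 (SE), opposite in sign to those of Jchain and Fkbp11, and did not pass. In edgeR 2 plasma cell markers were higher and 2 lower at an unadjusted p under 0.05, and after adjustment DESeq2 called 2 lower and limma voom 1. The summed level of the plasma cell list ran from 553 to 602 CPM in GFP-ZFP36L1 libraries and from 530 to 552 CPM in controls, most of it from Irf4, Mzb1 and Xbp1, which B cells also express. Of the 8 listed germinal centre and memory genes, 6 were tested, 0 rose and 0 fell, with 1 higher at an unadjusted p under 0.05 in edgeR and 0 called by DESeq2 or limma voom. That list summed to 118 to 194 CPM in GFP-ZFP36L1 libraries and 139 to 185 CPM in controls. The part of these cells in the IgG values was not tested.

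Of the 21 genes listed for class switching and hypermutation, 20 were tested, 0 rose and 0 fell in edgeR, and the median log2 fold change was -0.002. At an unadjusted p under 0.05 edgeR had 2 higher, and after adjustment DESeq2 called 0 and limma voom 1, which was higher. Exo1, an exonuclease of mismatch repair, had the smallest p, with a log2 fold change of 0.40 ± 0.13 (SE) and an edgeR adjusted p of 0.125. Trp53bp1, which protects DNA ends during switching, had 0.17 ± 0.07.

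Igkc, the kappa light chain, had 2288, 1886, 1976 and 1587 CPM in GFP-ZFP36L1 replicates 1 to 4, against 2543, 2182, 2210 and 1942 CPM in control replicates 1 to 4. The groups overlapped, and the log2 fold change of -0.20 ± 0.11 (SE) did not pass (edgeR adjusted p = 0.413). Iglc2, a lambda light chain gene, had 634, 623, 595 and 481 CPM in GFP-ZFP36L1 replicates 1 to 4, against 702, 594, 589 and 567 CPM in control replicates 1 to 4. Its log2 fold change of -0.07 ± 0.10 (SE) did not pass either (edgeR adjusted p = 0.764). In both light chains the lowest library was GFP-ZFP36L1 replicate 4.

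Iglc2 has a close relative, Iglc3, which was not analysed here, and the sources used here do not state how reads that match both were counted. They shared 43 stretches of 50 nt, 7.65% of those of Iglc2 and 10.7% of those of Iglc3. Their longest common stretch, 79 nt in capitals, is shown with 30 nt on each side, on the minus strand of GRCm38 and 5′ to 3′, because it is shorter than a full read of 100 nt, while a read trimmed to fit inside it would match both genes.
Iglc2 (chr16:19198640-19198778): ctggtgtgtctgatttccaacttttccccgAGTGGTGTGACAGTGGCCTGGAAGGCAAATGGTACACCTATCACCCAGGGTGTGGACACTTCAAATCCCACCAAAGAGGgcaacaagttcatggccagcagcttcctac
Iglc3 (chr16:19065469-19065607): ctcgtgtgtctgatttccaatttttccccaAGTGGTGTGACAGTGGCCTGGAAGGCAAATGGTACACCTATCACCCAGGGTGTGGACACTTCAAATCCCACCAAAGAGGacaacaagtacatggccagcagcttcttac
Iglc1 shared 0 stretches of 50 nt with Iglc2.

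The kappa to lambda ratio, Igkc over Iglc2 counts, was 3.61, 3.03, 3.32 and 3.30 in GFP-ZFP36L1 replicates 1 to 4, against 3.62, 3.68, 3.75 and 3.42 in control replicates 1 to 4. GFP-ZFP36L1 replicate 1 lay within the controls and the other libraries of its group below them. The mean was 3.31 ± 0.240 in GFP-ZFP36L1 libraries and 3.62 ± 0.140 in controls (SD, n = 4 each), which did not pass (exact permutation p = 0.0571, two-sided, 0.114 adjusted over the 4 ratios). Summed variable segments, 97 of kappa against 3 of lambda, gave a ratio of 11.03 ± 1.33 in GFP-ZFP36L1 libraries and 12.1 ± 1.40 in controls (exact permutation p = 0.314, two-sided, n = 4 each). The ratio from constant genes leaves out Iglc1, Iglc3 and Iglc4, and its size is not that of kappa to all lambda.

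The balance of heavy to light chains overlapped between the groups. The heavy constant genes held 3.09 ± 0.312 times the counts of Igkc and Iglc2 in GFP-ZFP36L1 libraries and 3.06 ± 0.265 times in controls (exact permutation p = 0.886, two-sided, n = 4 each). Per kb of merged exons, with Iglc1, Iglc3 and Iglc4 missing from the light side, the ratio was 0.897 ± 0.0909 in GFP-ZFP36L1 libraries and 0.885 ± 0.0768 in controls. From summed variable segments it was 0.543 ± 0.0381 in GFP-ZFP36L1 libraries and 0.506 ± 0.0495 in controls (exact permutation p = 0.314, two-sided, n = 4 each). The 113 heavy variable segments summed to 1745 ± 87.7 CPM in GFP-ZFP36L1 libraries and 1771 ± 102 CPM in controls. Those of kappa summed to 2962 ± 356 CPM in GFP-ZFP36L1 libraries and 3242 ± 213 CPM in controls.

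At the cell surface the immunoglobulin chains pair with CD79A and CD79B, which carry the signal inward. Of 13 genes of this receptor complex and its nearest partners, all tested, 0 rose and 0 fell, 11 had a negative log2 fold change, and the median was -0.11. At an unadjusted p under 0.05 edgeR had 4 lower, beside 7.87% of all tested genes, and after adjustment DESeq2 called 2 lower and limma voom 3. Cd79a had 2388 ± 251 CPM in GFP-ZFP36L1 libraries and 2674 ± 154 CPM in controls, and Cd79b 1533 ± 175 CPM in GFP-ZFP36L1 libraries and 1780 ± 144 CPM in controls (SD, n = 4 each). Cd22, an inhibitory partner that binds sialic acid, had the smallest p of this list, with a log2 fold change of -0.23 ± 0.07 (SE) and an edgeR adjusted p of 0.0934. Ptprc, the receptor phosphatase that bears the B220 epitope, had -0.21 ± 0.07 (SE).

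In the immunoglobulin secretion list, 1 of 16 tested genes rose, Dnajb9, a chaperone partner of the endoplasmic reticulum, at 30.2 ± 1.12 CPM in GFP-ZFP36L1 libraries against 25.5 ± 1.38 CPM in controls (edgeR adjusted p = 0.0490). The others did not pass in edgeR, where 5 were higher and 4 lower at an unadjusted p under 0.05, and the median of the list was -0.03. After adjustment DESeq2 called 2 higher and 2 lower, and limma voom 2 higher and 1 lower. Pou2f2, the octamer-binding factor OCT2 that acts at immunoglobulin promoters, had a log2 fold change of -0.25 ± 0.07 (SE; edgeR adjusted p = 0.0777). Tent5c, a poly(A) polymerase that stabilises immunoglobulin mRNA in plasma cells, had the opposite sign, with a log2 fold change of 1.148 ± 0.33 (SE; edgeR adjusted p = 0.101). Of the 7 Fc receptor and transport genes, 0 rose and 0 fell, with a median of -0.11. At an unadjusted p under 0.05 edgeR had 3 lower, and DESeq2 and limma voom each called 3 lower after adjustment. Fcgrt, the neonatal Fc receptor that recycles IgG, had 13.7 ± 5.97 CPM in GFP-ZFP36L1 libraries and 32.3 ± 2.22 CPM in controls, a log2 fold change of -1.24 ± 0.28 (SE) that did not pass (edgeR adjusted p = 0.0571). Fcer2a, the low-affinity IgE receptor CD23, had -0.27 ± 0.08 (SE; edgeR adjusted p = 0.101). The surrogate light chain and recombination genes had 2 of 7 tested, 1 lower at an unadjusted p under 0.05 in edgeR and 0 called by edgeR, DESeq2 or limma voom, with Vpreb3 at 61.8 ± 15.9 CPM in GFP-ZFP36L1 libraries and 83.9 ± 8.37 CPM in controls, and Igll1, Vpreb2 and Dntt had no counts.

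Other B cell subsets differ in IgM, IgD and IgG, so their markers were read beside Ighd and Ighg1. Of 7 general B cell markers 1 fell, Pax5, which sets B cell identity, at 210.2 ± 6.82 CPM in GFP-ZFP36L1 libraries against 244 ± 8.06 CPM in controls (edgeR adjusted p = 0.0405). All 7 had negative log2 fold changes with a median of -0.21, beside -0.33 for Ighd. In edgeR 4 of them were lower at an unadjusted p under 0.05, and DESeq2 and limma voom each called 3 lower after adjustment. Of 6 follicular markers 1 fell and 0 rose, with 4 lower at an unadjusted p under 0.05 in edgeR and a median log2 fold change of -0.29. DESeq2 and limma voom each called 2 lower. The summed follicular list ran from 4642 to 5313 CPM in GFP-ZFP36L1 libraries and from 5452 to 5628 CPM in controls, without overlap. Other summed lists did not overlap either. The receptor complex list was lower, at 13950 to 15460 CPM in GFP-ZFP36L1 libraries against 15520 to 16430 CPM in controls. The myeloid list was lower too. In it Adgre1 had a log2 fold change of -0.89 ± 0.25 (SE), beside -0.15 ± 0.24 for Lyz2 and 0.11 ± 0.40 for Csf1r. The plasma cell list was higher, but its groups nearly met. Its lowest GFP-ZFP36L1 library had 553.2 CPM and its highest control 551.6 CPM. How often such sums separate by chance was not tested. Of 7 marginal zone markers 1 rose, Myof, at 54.1 ± 17.8 CPM in GFP-ZFP36L1 libraries against 22.4 ± 2.47 CPM in controls (edgeR adjusted p = 0.0254), and that list summed to 1696 to 2063 CPM in GFP-ZFP36L1 libraries and 1657 to 1826 CPM in controls. In edgeR 3 marginal zone markers were higher at an unadjusted p under 0.05, Myof, S1pr3 and Dtx1, and DESeq2 and limma voom each called 2 higher after adjustment. S1pr3, a sphingosine phosphate receptor that keeps cells in the marginal zone, had a log2 fold change of 0.91 ± 0.22 (SE) that did not pass (edgeR adjusted p = 0.0539).

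Of 5 tested transitional markers edgeR called 0, and 3 passed an unadjusted p under 0.05, Vpreb3 and Sox4 lower and Myb higher. After adjustment DESeq2 called 1 and limma voom 2 of these markers. The list summed to 535 to 610 CPM in GFP-ZFP36L1 libraries and 548 to 644 CPM in controls. Of 5 tested B1 markers 1 rose, Itgam, at 3.404 ± 0.725 CPM in GFP-ZFP36L1 libraries against 1.96 ± 0.334 CPM in controls (edgeR adjusted p = 0.0395). The other 4 had negative log2 fold changes, and the median of the list was -0.35. Zbtb32, a transcription factor, and Spn, the surface sialoprotein CD43, were the 2 lower at an unadjusted p under 0.05, with -0.96 ± 0.29 and -0.40 ± 0.13 (SE, log2). DESeq2 called 1 of the list higher and 1 lower after adjustment, and limma voom 1 higher and 2 lower. The B1 list summed to 18 to 22.4 CPM in GFP-ZFP36L1 libraries and 21.8 to 25.5 CPM in controls, and the defining gene Cd5 had 0.581 ± 0.0963 CPM in GFP-ZFP36L1 libraries and 0.739 ± 0.0965 CPM in controls. The part of cell subsets in the Ighd and Ighg1 values was not tested.

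Markers of cells outside the B lineage were scarce, and edgeR called 0 of the 14 tested. Adgre1, the macrophage marker F4/80, was the 1 past an unadjusted p under 0.05, at 1.725 ± 0.649 CPM in GFP-ZFP36L1 libraries and 3.21 ± 0.574 CPM in controls, and DESeq2 and limma voom each called 1 lower. The T cell list summed to 34.1 to 35.4 CPM in GFP-ZFP36L1 libraries and 31.9 to 34.9 CPM in controls, nearly all of it Lck. The NK cell list summed to no more than 3.82 CPM in GFP-ZFP36L1 libraries and 2.71 CPM in controls, and the myeloid list to no more than 3.59 CPM in GFP-ZFP36L1 libraries and 5.25 CPM in controls. Erythroid genes reached 8.43 CPM in GFP-ZFP36L1 libraries and 13.4 CPM in controls, and platelet genes 7.79 CPM in GFP-ZFP36L1 libraries and 6.43 CPM in controls.

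Across the 8 libraries, the genes whose log2 CPM most resembled that of Ighd were Trappc6b, Gad1 and Gucd1, with Pearson r of 0.987, 0.980 and 0.977. All of them fell in the libraries labelled GFP-ZFP36L1, so the likeness includes the difference between groups. For Igkc they were Srp14, a signal recognition particle subunit, Dnpep and Gtf2b, at 0.995, 0.993 and 0.992, and for Igha Tmx1, Hccs and Tmem135, at 0.960, 0.950 and 0.944. These values rank 8875 genes over 8 points that share libraries and depth, and are given as a description.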

How the data were processed

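RNA of sorted follicular B cells was sequenced as stranded mRNA libraries with paired reads of 100 bp, per the labels and the series' design text. Per the submitters' processing notes, build GRCm38 was used with TopHat2 2.0.12, HTSeq, Trim Galore and DESeq2 1.10.1. Settings, including the strand used in counting, are not stated in the sources used here. All tests started from the raw counts per gene that the authors deposited. The authors' deposited comparison table gives log2 fold changes, smaller in size than those computed here, and p-values, both used for members alone. All 8 count columns were matched to libraries through the sample titles, 0 were left over and 0 entries named no gene. Symbols, coordinates and sequences came from GENCODE mouse release 21, built on GRCm38, which names 42548 of 43629 identifiers.

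Counts were fitted in R 4.3.3 with edgeR 4.0.16 (filterByExpr, TMM, robust quasi-likelihood test, Benjamini-Hochberg adjustment over 13035 genes, call at 0.05), with group as the sole term, and the fit was tested on simulated data. Standard errors came from the F statistic. Levels are CPM, also per kb of merged exons. Ratios used raw counts and exact permutation tests over 70 assignments (scipy 1.17.1), and intervals are 95% Wilson. Library depth is that of the table, and intervals cover counting error alone. The members and the 18 gene lists were chosen with earlier results of these data known. Named genes were the members, Zfp36l1, called genes and up to 4 genes of smallest p per list, and the 3 nearest genes by Pearson r (log2 CPM, prior count 2, mean of at least 5 CPM) for Ighd, Igha and Igkc. Cd93, Cd79a, Cd5, Cd3e and genes at 0 are named beyond that rule, as defining genes chosen with values known. A few genes under this rule are not reported here. Lists are described by counts and medians, with no set test. Replicate numbers follow accession order and pair nothing. Alternatives were DESeq2 1.42.0, limma 3.58.1 voom, other scalings and filters, a linear term for the number in each title, and each library left out.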

Additional observations from a re-analysis of the deposited data

Results flagged for a closer look

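Of 13 quantities examined in each group, the 9 genes' CPM and the 4 ratios, 2 had a library far from the other 3 of its group, and chance gives about 1 in 20 such groups. GFP-ZFP36L1 replicate 1 stood above the rest of its group for Ighm, at 5550 CPM. Control replicate 4 stood below the rest of its group for Igha, at 13.8 CPM.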

How the results depend on the processing

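No paired analysis was possible because the labels number the libraries 1 to 8 with no number shared between groups. Of all genes 407 were called. DESeq2 called 895, limma voom 1053 and a fit with a linear term for title number 1030. Leaving out any 1 library moved that count by over 1.5 times, from 79 without control replicate 3 to 948 without GFP-ZFP36L1 replicate 1. With 1 library left out, 1 to 2 members were called, 2 only without GFP-ZFP36L1 replicate 1, and Ighg1 was called each time. Ighd stayed called in all 9 alternatives that kept every library, at adjusted p from 0.000143 to 0.0498, and fell short in 7 of the 8 that did not. Ighg3 passed in 2 of 17 alternatives, DESeq2 and the title number term. The log2 fold change of Iglc2 ran from -0.108 to 0.015 with 1 library left out. The log2 difference of the IgM to IgD ratio ran from 0.217 to 0.320 with 1 library left out, where 3 against 4 libraries allow no exact p below 0.0571. The switched share differed by -0.0412 percentage points and by -0.0408 without Igha, where the unadjusted exact p was 0.0286, the smallest that 4 against 4 libraries allow. The heavy to light log2 difference of 0.0139 ran from -0.0532 to 0.0558 with 1 library left out, with a change of sign without GFP-ZFP36L1 replicate 4 or control replicate 1, and was -0.0343 with the title number term. The cause of these changes was not tested. Iglc3 and Iglc4 could not be added to lambda. Depth limits Ighg2c and Ighe, with few counts or none per library.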

Other observations

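The counts of Iglc2 were set beside those of lambda variable segments, among them Iglv2, a usual partner of Iglc2 in rearranged mouse lambda genes. Iglc2 had 27524, 30368, 25812 and 19763 counts in GFP-ZFP36L1 replicates 1 to 4, against 29419, 29521, 24774 and 23100 in control replicates 1 to 4. Iglv2 had 1150, 734, 1086 and 988 counts in GFP-ZFP36L1 libraries, against 876, 1235, 1258 and 1067 in controls. Another lambda segment, Iglv3, had more, with 4133, 5087, 4604 and 3896 counts in GFP-ZFP36L1 libraries, against 3510, 4748, 4082 and 3858 in controls. Iglv1 had the most in every library. Its counts were 6968, 5886, 6751 and 6117 in GFP-ZFP36L1 libraries, against 6110, 6914, 7310 and 5898 in controls. Counts of Iglc2 were 1.80 to 2.59 times those of all lambda variable segments together in GFP-ZFP36L1 libraries and 1.96 to 2.80 times in controls. These quotients are of raw counts, not per length. For kappa the constant gene had fewer counts than the variable segments, with Igkc at 0.639 to 0.687 times the kappa variable segments in GFP-ZFP36L1 libraries and 0.645 to 0.748 times in controls. Which reads make up the Iglc2 count was not tested.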
